A study of Homo sapiens with 8 samples.

Results

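ATP-binding cassette (ABC) transporter genes were examined in tumours that human H2122 cells, an established lung cancer line, had formed in mice. The members were all gene symbols made of ABC, a subfamily letter from A to G and a number, which gave 46 of the 59050 symbols counted. Of these, 45 are protein-coding in GENCODE 29 and ABCC13 is annotated there as a transcribed pseudogene. The rule leaves out 3 genes of the same family that carry other names, CFTR, TAP1 and TAP2, which are described after the members.

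RNA was sequenced from 4 parental tumours, labelled wild type, and from 4 tumours of cells with a knockout of SMARCA4, the gene of an ATPase that drives SWI/SNF nucleosome remodelling. All 8 tumours are labelled as treated with vehicle. The labels do not say whether the knockout cells came from a single clone or whether every tumour grew in a separate animal, so p-values measure the spread between these tumours. The comparison asks which members differ in RNA level between tumours with and without SMARCA4.

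ABC proteins bind and hydrolyse ATP at paired nucleotide-binding domains, and most of them use that energy to move a substrate across a membrane. The A subfamily mainly moves lipids, and the B subfamily includes the drug pump P-glycoprotein and several mitochondrial transporters. Many C members export drugs and organic anions conjugated to glutathione, glucuronate or sulphate, while D members carry fatty acyl-CoA into peroxisomes or cobalamin out of lysosomes. E and F members have no membrane domains and work at ribosomes, and G members move sterols or drugs. In lung, ABCA3 is known for loading surfactant lipids into lamellar bodies of alveolar type II cells.

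The counts assigned to genes ranged from 19785922 to 23191698 in the parental libraries and from 20662882 to 21981123 in the knockout ones. SMARCA4 itself was at 198 to 235 counts per 1000000 (CPM) in the parental and 22.3 to 31.1 CPM in the knockout tumours, with no library against its label (exact permutation, two-sided, p = 0.0286, the lowest value possible with 4 against 4 tumours). Epithelial markers were abundant, with EPCAM at 515 ± 58.1 and 441 ± 5.70 CPM and KRT8 at 1791 ± 176 and 2003 ± 359 CPM (parental and knockout, SD, n = 4 each), while the lung lineage gene NKX2-1 had 0 counts in all 8 libraries. Of the 9 epithelial markers, 7 were tested and 2 were lower in the knockout tumours, KRT19 and KRT7. At the same edgeR threshold, an adjusted p under 0.05, 14.1% of all genes tested were lower and 27.0% changed in either direction. Summed leukocyte markers (8 genes, 6 tested, none past the threshold by edgeR) ran from 7.40 to 67.6 CPM in the parental and 12.0 to 28.8 CPM in the knockout tumours, highest in parental replicates 2 and 3 (67.6 and 56.6 CPM). Fibroblast markers (8 genes, 4 tested, LUM higher) summed to 179 to 607 and 343 to 603 CPM, and endothelial markers (8 genes, 2 tested, VWF lower) to 7.72 to 18.2 and 8.82 to 15.6 CPM. Most of the fibroblast sum was COL1A1, with means of 353 and 447 CPM. DCN was at 0.0991 and 0.285 CPM and PDGFRB at 0.305 and 0.177 CPM. Most of the endothelial sum was PECAM1, with means of 7.94 and 9.77 CPM. Adipocyte markers (5 genes, ADIPOQ at 0 counts) summed to at most 0.625 and 1.27 CPM. Skeletal muscle markers (6 genes) reached 32.0 CPM in parental replicate 2 and 14.4 CPM in knockout replicate 4. No adipocyte or muscle marker passed the filter on low counts. The tumours grew in mice and any removal of mouse reads is not given, so host reads counted at these markers cannot be separated.

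In knockout tumours ABCC1 and ABCC2, which export conjugates and drugs, were 1.74-fold and 2.01-fold higher, and ABCA5 and ABCA10, of the lipid-moving subfamily, 2.15-fold and 5.69-fold higher. From the same subfamily ABCA4, ABCA12, ABCA1 and ABCA7 were 13.7-fold, 3.54-fold, 1.94-fold and 1.40-fold lower, and the efflux pump gene ABCC5 was 1.85-fold lower (n = 4 each, errors are given with each gene). These 9 genes were the members called changed, meaning an adjusted p under 0.05 in edgeR's quasi-likelihood test over all genes. They came from 34 members that passed the filter on low counts, and the 12 others are described by their counts. Over all 16219 genes tested, 27.0% were called, against 26.5% of the members tested, so members were called about as often as genes in general. The same held for direction, with 4 members (11.8%) higher against 13.0% of all genes and 5 members (14.7%) lower against 14.1%. A change of at least 2-fold was called for 5 members (14.7%), against 10.4% of all genes. The CPM of the groups did not overlap for 8 members (23.5%), against 29.3% of all genes. The median log2 fold change was -0.03 over the members tested and 0.00345 over all genes tested.

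**Figure D1:**
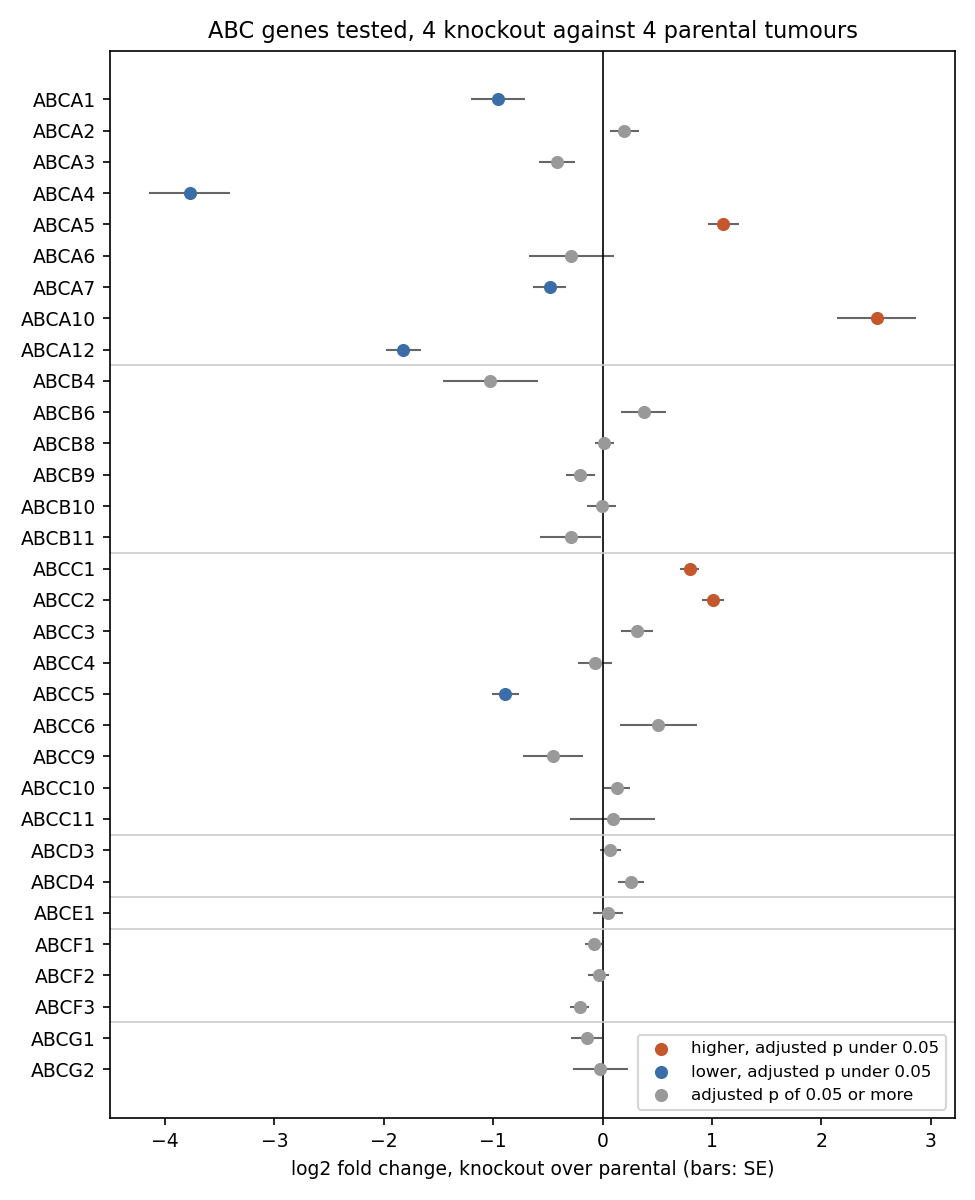
Log2 fold changes (horizontal axis, knockout over parental, bars show the standard error) of ABC genes tested, grouped by subfamily from A at the top to G, with 2 uncalled members not shown. The 9 coloured points passed the threshold and all lie in subfamilies A and C, from -3.78 for ABCA4 to 2.51 for ABCA10.

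By subfamily, calls were made for 6 of 9 members tested in A and for 3 of 9 in C. None was made by edgeR for the 7 members tested in B, the 3 in D, the 1 in E, the 3 in F and the 2 in G, and DESeq2 gave the same 9 calls and none in these subfamilies. At an unadjusted p under 0.05, edgeR gave 1 member each in B (ABCB4), D (ABCD4) and F (ABCF3) and 0 in E and G. Whether the share of calls differs between subfamilies was not tested.

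Levels of different genes were compared as CPM per kilobase of exon, using all annotated exons of a gene. On this scale the most abundant members were ABCC3, ABCC1 and ABCC2, 3 exporters of conjugated organic anions. In parental tumours their means were 51.5 ± 11.6, 38.8 ± 3.37 and 30.9 ± 2.94 CPM per kilobase (SD, n = 4 each). Parental ABCC1 and ABCC2 did not overlap, while ABCC3 ranged from 35.4 to 61.7 and overlapped ABCC1. In knockout tumours the 3 genes stood at 67.5 ± 2.74, 64.1 ± 3.91 and 62.2 ± 5.80 for ABCC1, ABCC3 and ABCC2, with overlapping ranges, so their order there is within the spread. The next member, ABCE1, was at 18.7 ± 4.15 in the parental and 19.4 ± 1.18 in the knockout tumours, below every library's value of the 3 C genes. ABCC1, ABCC2 and ABCC3 together made up 50.3% ± 2.84 of all member CPM in the parental and 63.7% ± 1.11 in the knockout tumours (SD, n = 4 each).

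**Figure D2:**
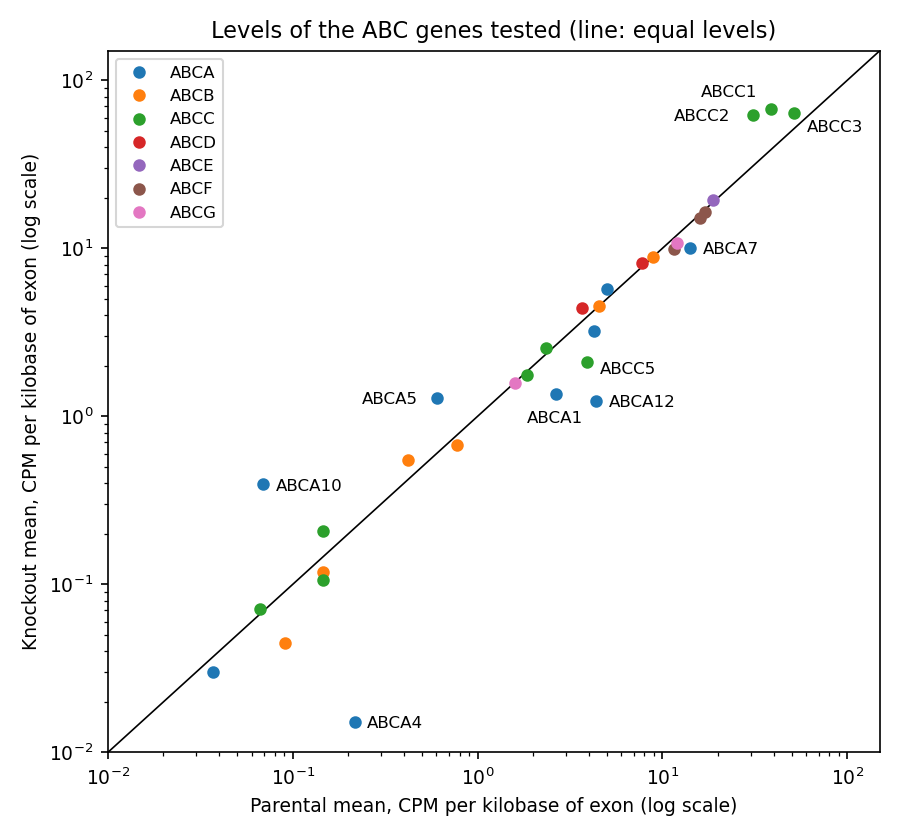
Mean level of ABC genes tested in parental (horizontal axis) and knockout tumours (vertical axis), both in CPM per kilobase of exon on log scales, coloured by subfamily, with a line of equal levels and 2 uncalled members not shown. ABCC1 and ABCC2 lie above the line at the top right beside ABCC3, and ABCA4 lies farthest below it.

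Summed over its members, subfamily C was at 1110, 1230, 1155 and 963 CPM in parental replicates 1 to 4 and at 1665, 1676, 1620 and 1751 CPM in the knockout replicates 1 to 4. Every knockout tumour was above every parental tumour, a ratio of means of 1.51 (exact permutation test, two-sided, p = 0.0286, and 0.1 when adjusted over the 7 subfamilies by Benjamini-Hochberg). Subfamily D was the other one with no overlap between groups, at 113 ± 3.88 and 127 ± 1.79 CPM (ratio 1.12, same p-values). The smallest p that 4 against 4 tumours allow cannot pass 0.05 after this adjustment when only 2 of 7 subfamilies reach it. Subfamily A had 293 ± 41.3 and 224 ± 10.1 CPM (exact permutation p = 0.0571, adjusted 0.133), with parental replicate 4 at 233 CPM inside the knockout range. The sums of B, E, F and G had ratios of 0.970, 1.04, 0.933 and 0.914, with permutation p-values of 0.4, 0.886, 0.0857 and 0.343.

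**Figure D3:**
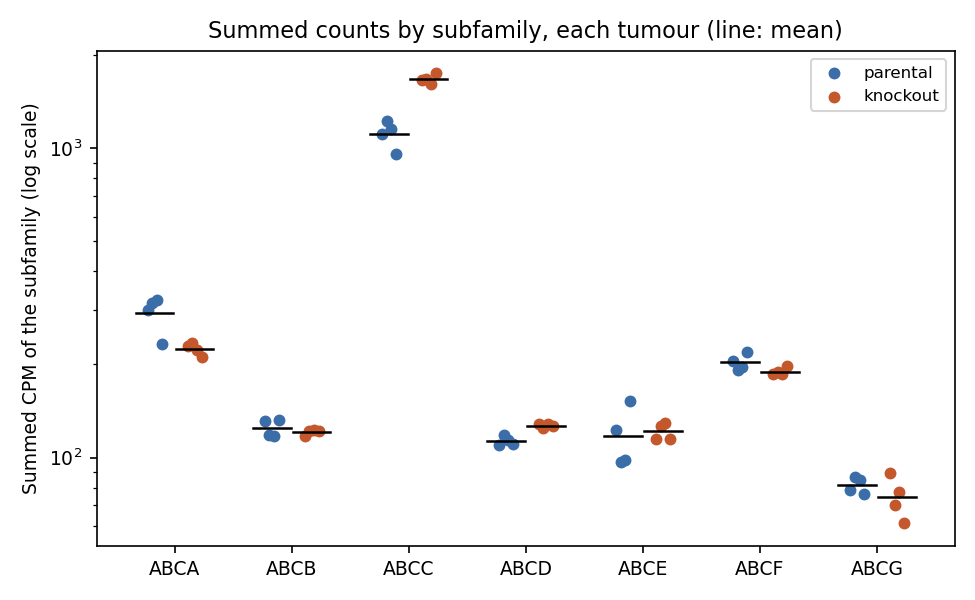
CPM summed over the members of each subfamily (vertical axis, log scale) in every tumour, with a line at the group mean. The C sums of the knockout tumours lie at 1620 to 1751 CPM, all above the parental sums of 963 to 1230 CPM.

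Sequence just before the start of a gene was compared among the called members, in windows of 250 bases from RefSeq (GRCh38.p14) that were listed for 35 of the 46 members. Over all 35116 windows the median GC content was 58% and the median number of CG pairs was 11. The windows of ABCC2 and ABCA12, a gene that rose and one that fell, were poor in CG, with 1 pair each and 45.6% and 48.8% GC. ABCA5 started in CG-rich sequence, with 42 pairs and 79.2% GC. The sequences below show this contrast, 5′ to 3′ on the gene's strand, with CG pairs in capitals.
ABCC2, chr10:99782390-99782639, plus strand: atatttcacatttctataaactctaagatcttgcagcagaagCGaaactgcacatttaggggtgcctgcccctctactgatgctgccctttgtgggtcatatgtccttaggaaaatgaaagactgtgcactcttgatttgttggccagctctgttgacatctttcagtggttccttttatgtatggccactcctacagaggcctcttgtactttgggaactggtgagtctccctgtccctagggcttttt
ABCA12, chr2:215138627-215138876, minus strand: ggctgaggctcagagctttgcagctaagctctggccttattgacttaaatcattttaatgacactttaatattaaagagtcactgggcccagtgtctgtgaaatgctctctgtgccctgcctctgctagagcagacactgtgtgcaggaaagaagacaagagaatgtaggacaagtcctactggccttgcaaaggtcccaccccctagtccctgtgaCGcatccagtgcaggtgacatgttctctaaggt
ABCA5, chr17:69327245-69327383, minus strand: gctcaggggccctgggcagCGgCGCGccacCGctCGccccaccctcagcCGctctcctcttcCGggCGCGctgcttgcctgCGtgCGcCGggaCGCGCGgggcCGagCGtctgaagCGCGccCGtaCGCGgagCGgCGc
The ABCA5 stretch is the 139 bases of its window that lie outside annotated exons and holds 24 of the CG pairs. Of the other called members with a window, ABCA10 had 2 CG pairs, ABCA1 16, ABCC5 21 and ABCA7 25. In these windows neither the genes that rose nor those that fell shared a GC class. ABCA10 and ABCA12 each have 2 listed windows, of which only that of the most upstream start was compared. No window is listed for ABCA4 and ABCC1.

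Motifs were searched on both strands of all listed windows, 53 for the 35 members, since some genes have several starts. The core of the antioxidant response element, TGACNNNGC, was in 10.9% of all windows and in 9 of the 53 member windows (17%), none of them of a called gene. The AP-1 motif TGANTCA, whose letters can overlap that core, was in 6.57% of all windows and in 5 member windows (9.43%), with ABCA10 the called gene. The E-box CACGTG was in 6.34% of all windows and in 9 member windows (17%), among them windows of ABCA1 and ABCA12. The GC box GGGCGG was in 42.6% of all windows and in 25 member windows (47.2%), among them those of ABCA1, ABCA5, ABCA7 and ABCC5. The match of ABCA10 and the E-box of ABCA12 lie before another of their listed starts.

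Among the exporters, ABCC2 encodes an apical pump for bilirubin glucuronide and glutathione conjugates, best known from the bile canaliculus. It was at 271, 231, 218 and 249 CPM in parental replicates 1 to 4 and at 448, 489, 462 and 551 CPM in the knockout replicates 1 to 4. The lowest knockout tumour was well above the highest parental tumour. ABCC2 rose with a log2 fold change of 1.01 and an SE of 0.0990 (edgeR adjusted p = 2.85e-05). The gene lies on chromosome 10 from 99782640 to 99852594 on the plus strand (GENCODE 29, GRCh38), directly after the CG-poor window printed above.

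ABCC1 (MRP1, chromosome 16, 15949577 to 16143074, plus strand) exports glutathione conjugates, leukotriene C4 and many drugs, mainly from the basolateral side of cells. Its CPM was 269, 330, 286 and 290 in the parental and 521, 499, 535 and 489 in the knockout replicates 1 to 4. Both groups were tight and far apart. ABCC1 rose with a log2 fold change of 0.80 and an SE of 0.0859 (adjusted p = 5.24e-05), a 1.74-fold increase.

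ABCC3, another basolateral conjugate exporter and the member with the highest level per length in C over the 8 tumours, was at 488, 593, 558 and 341 CPM in the parental and 630, 628, 561 and 646 CPM in the knockout replicates 1 to 4. Parental replicate 4 was low, and 1 knockout tumour lay within the parental range. The log2 fold change was 0.32 with a 95% interval of -0.01 to 0.64 (adjusted p = 0.145).

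ABCC5 (chromosome 3, 183919934 to 184018015, minus strand), an exporter of cyclic nucleotides and other organic anions, went the other way. It was at 43.8, 37.0, 53.3 and 44.9 CPM in the parental and 26.9, 21.9, 21.7 and 26.1 CPM in the knockout replicates 1 to 4. The groups did not overlap. ABCC5 fell by 0.89 (log2, SE 0.124, adjusted p = 0.000326).

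**Figure D4:**
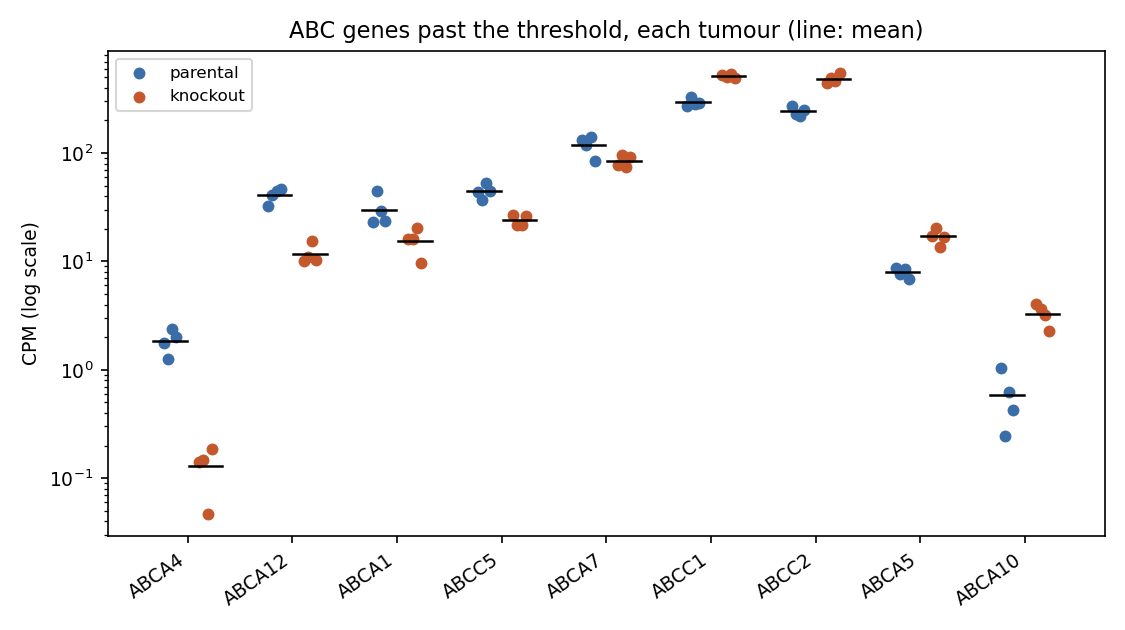
CPM (vertical axis, log scale) of the 9 called ABC genes in each of 4 parental and 4 knockout tumours, with a line at the group mean. The groups are apart for every gene but ABCA7, where parental replicate 4 at 83.7 CPM lies among the knockout tumours.

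The other tested C members had values that did not pass. ABCC4, which exports cyclic AMP and prostaglandins, had a log2 fold change of -0.07 (95% interval -0.41 to 0.27, adjusted p = 0.769). ABCC10, a broad drug efflux pump, had 0.13 (interval -0.14 to 0.40, adjusted p = 0.465). ABCC9, the regulatory subunit of a potassium channel in muscle and vessels, stood at 1.69 ± 0.400 CPM in the parental and 1.23 ± 0.364 CPM in the knockout tumours (SD, n = 4 each, adjusted p = 0.256). ABCC11, known for its variant that sets earwax type, was at 0.481 ± 0.186 and 0.519 ± 0.197 CPM (adjusted p = 0.887).

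ABCC6, whose loss causes pseudoxanthoma elasticum, was at 0.984, 0.928, 1.97 and 0.553 CPM in the parental and 1.64, 1.56, 1.21 and 1.91 CPM in the knockout replicates 1 to 4. Parental replicate 3 was the highest of all. Without it ABCC6 was called higher, with a log2 fold change of 0.95 (edgeR adjusted p = 0.0431), against 0.51 with all tumours (adjusted p = 0.316). The gene has near-identical pseudogenes, ABCC6P1 with 9 counts in each group and ABCC6P2 with 2 and 4 counts, so its level is uncertain.

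In the A subfamily, ABCA12 and ABCA4 fell most among the members tested, ABCA1 and ABCA7 fell less, and ABCA10 and ABCA5 rose. ABCA12 (chromosome 2, 214931542 to 215138428, minus strand) loads glucosylceramide into lamellar granules of keratinocytes, and its loss causes harlequin ichthyosis. Its CPM was 32.2, 41.3, 44.9 and 46.8 in the parental and 10.1, 11.0, 15.4 and 10.2 in the knockout replicates 1 to 4. All knockout tumours were low, replicate 3 standing above the other three. ABCA12 fell by 1.82 (log2, SE 0.161, adjusted p = 1.39e-05), a 3.54-fold drop.

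ABCA4 (chromosome 1, 93992835 to 94121132, minus strand), the photoreceptor transporter of retinoids that is mutated in Stargardt disease, was scarce. It had 34, 26, 53 and 47 counts in the parental and 3, 3, 1 and 4 counts in the knockout replicates 1 to 4, which is 1.85 ± 0.460 and 0.130 ± 0.0592 CPM (SD). Every knockout library was at or near the floor of 3 counts, and every parental library was above it. ABCA4 fell by 3.78 (log2, SE 0.372, 95% interval -4.59 to -2.96, adjusted p = 2.89e-05). DESeq2 gave -3.84 with a wider SE of 0.552, so the edgeR interval may be too narrow at these counts.

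ABCA13, a very large A member, was too scarce for the test and pointed the same way. It had 7, 6, 40 and 22 counts in the parental and 0, 2, 1 and 2 counts in the knockout replicates 1 to 4. The groups did not overlap, though parental replicates 1 and 2 were low. Scaled for depth, the 75 parental counts were 14.8 times the 5 knockout counts (exact 95% interval 6.08 to 47.0 for counting error only, permutation p = 0.0286 unadjusted).

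ABCA1 (chromosome 9, 104781002 to 104928237, minus strand) passes cholesterol and phospholipid from cells to apolipoprotein A-I, and macrophages are among the cells where it is best known. It was at 22.9, 44.4, 29.1 and 23.8 CPM in the parental and 16.0, 15.9, 20.3 and 9.66 CPM in the knockout replicates 1 to 4. The groups did not overlap, and parental replicate 2 stood highest. ABCA1 fell by 0.95 (log2, SE 0.245, adjusted p = 0.0136). Parental replicates 2 and 3, highest in ABCA1, were also highest in summed leukocyte markers (67.6 and 56.6 CPM). Parental replicates 1 and 4 had 13.1 and 7.40 CPM of these markers, and the knockout tumours 12.0 to 28.8 CPM. In parental replicates 1 and 4 ABCA1 was above every knockout tumour (22.9 and 23.8 CPM). The part of the leukocyte markers in the result was not tested. Without parental replicate 2 ABCA1 was still called, with a log2 fold change of -0.71. In such bulk samples, fewer cells of a type and less RNA per cell cannot be told apart.

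ABCA7, a phospholipid transporter linked to phagocytosis and Alzheimer disease risk, had the highest level per length in the A subfamily. It was at 131, 119, 140 and 83.7 CPM in the parental and 77.1, 95.1, 74.8 and 91.6 CPM in the knockout replicates 1 to 4. Parental replicate 4 fell within the knockout range. ABCA7 fell by 0.49 (log2, SE 0.150, adjusted p = 0.0330). Its call was lost on leaving out parental replicate 1 or 3 or knockout replicate 1 or 3 (adjusted p from 0.0841 to 0.0958) and with upper-quartile scaling (adjusted p = 0.0526).

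ABCA3, the surfactant lipid transporter, was at 39.9, 39.6, 29.8 and 24.6 CPM in the parental and 26.6, 24.7, 28.5 and 20.5 CPM in the knockout replicates 1 to 4. The groups overlapped through parental replicate 4. The log2 fold change was -0.42 (SE 0.162, adjusted p = 0.0812), and ABCA3 was called lower without parental replicate 4 (-0.54, adjusted p = 0.0151) and with no filter on low counts (-0.43, adjusted p = 0.0336). ABCA2, a lysosomal lipid transporter best known from brain, had a log2 fold change of 0.20 (95% interval -0.09 to 0.49, adjusted p = 0.300).

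The 2 A members that rose are neighbours. ABCA8, ABCA9, ABCA6, ABCA10 and ABCA5 lie in this order on the minus strand of chromosome 17, and little is known of what ABCA10 carries, while ABCA5 is a lysosomal protein with a role in cholesterol efflux. ABCA10 (69147214 to 69244846) had 20, 5, 14 and 10 counts in the parental and 87, 75, 69 and 49 counts in the knockout replicates 1 to 4. Every knockout library had more counts than any parental one. ABCA10 rose with a log2 fold change of 2.51 and an SE of 0.361 (95% interval 1.72 to 3.30, adjusted p = 0.000395), from 0.583 ± 0.340 to 3.31 ± 0.762 CPM (SD, n = 4 each).

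ABCA5 (69244311 to 69327244) was at 8.65, 7.62, 8.49 and 6.89 CPM in the parental and 17.3, 20.1, 13.7 and 16.8 CPM in the knockout replicates 1 to 4, with no overlap. It rose with a log2 fold change of 1.10 and an SE of 0.140 (adjusted p = 0.000163). The annotated exons of ABCA5 and ABCA10 share 318 bases on the same strand, 3.78% of those of ABCA10.

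The other 3 genes of the cluster had few counts. ABCA6 had 44 counts in the parental and 36 in the knockout tumours (log2 fold change -0.28, adjusted p = 0.635). ABCA9 had 14 and 37 counts, a depth-scaled parental to knockout ratio of 0.374 (exact 95% counting interval 0.187 to 0.709, permutation p = 0.0571). ABCA8 had 19 and 2 counts, a ratio of 9.40 (interval 2.27 to 83.2, permutation p = 0.0857), and was at 0 in 3 of 4 knockout libraries. The cluster therefore held values on both sides of no change.

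Beyond the cluster, MAP2K6, a kinase gene 87.5 kb past ABCA5, had a log2 fold change of 0.03 (adjusted p = 0.906). On the other side FAM20A, 266 kb from ABCA8, was higher in the knockout tumours (log2 fold change 1.77, adjusted p = 0.00457), and PRKAR1A, which overlaps FAM20A on the other strand, had 0.03 (adjusted p = 0.885).

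**Figure D5:**
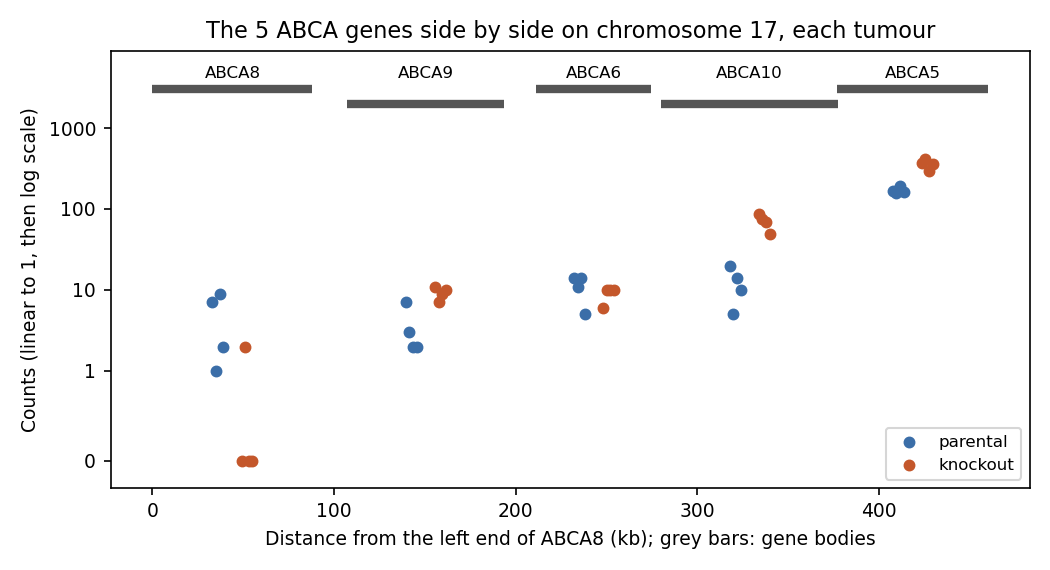
Counts of the 5 neighbouring ABCA genes on chromosome 17 in each tumour (vertical axis, linear up to 1 and log above), placed by distance from the left end of ABCA8 in kilobases, with grey bars for the gene bodies. ABCA10 and ABCA5 at the right have all knockout tumours above all parental ones, while ABCA8 has 3 knockout libraries at 0.

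None of the 7 tested B members was called by edgeR or DESeq2, and ABCB4 alone had an unadjusted p under 0.05. ABCB10, a mitochondrial transporter of the haem synthesis pathway with the highest level per length in B, was at 44.8, 31.0, 31.2 and 44.3 CPM in the parental and 36.4, 40.1, 38.8 and 35.1 CPM in the knockout replicates 1 to 4. The knockout tumours lay within the parental range. Its log2 fold change was -0.01 (95% interval -0.30 to 0.29, adjusted p = 0.974). ABCB8, another mitochondrial member, had an interval of -0.18 to 0.20. For ABCB6, a porphyrin transporter, the log2 fold change was 0.37 (SE 0.204, adjusted p = 0.207). AC068946.2, a protein-coding gene on the same strand, shares 54.7% of the exon bases of ABCB6, so the ABCB6 count is uncertain. The lysosomal peptide transporter ABCB9 had -0.20 (SE 0.132, adjusted p = 0.290). On the other strand AC026362.1, OGFOD2 and ARL6IP4 lie opposite 20.7%, 12.5% and 12.0% of its exon bases. The strand setting is not given, so the ABCB9 count is uncertain too.

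Of the canalicular members, the bile salt pump ABCB11 had 96 counts in the parental and 78 in the knockout tumours (log2 fold change -0.29, adjusted p = 0.480). The phosphatidylcholine floppase ABCB4 was at 0.518, 0.439, 1.21 and 0.638 CPM in the parental and 0.280, 0.585, 0.327 and 0.187 CPM in the knockout replicates 1 to 4. Knockout replicate 2 lay within the parental range. The log2 fold change of ABCB4 was -1.03 (SE 0.434, adjusted p = 0.105). ABCB1, the gene of P-glycoprotein, had 6, 15, 20 and 1 counts in the parental and 15, 4, 5 and 6 counts in the knockout replicates 1 to 4. All knockout values of ABCB1 lay within the parental range (exact permutation p = 0.543). ABCB5, a melanoma-associated pump, had 11 and 19 counts (permutation p = 0.229).

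The peroxisomal and lysosomal D members were not called singly. ABCD3, the main peroxisomal half-transporter of branched-chain and dicarboxylic acyl-CoA, had the highest level per length in D. It was at 56.3, 55.1, 55.6 and 69.1 CPM in the parental and 59.6, 64.5, 65.3 and 58.8 CPM in the knockout replicates 1 to 4. Parental replicate 4 stood above every other tumour. Its log2 fold change was 0.07 (interval -0.14 to 0.28, adjusted p = 0.618). The cobalamin transporter ABCD4 had 0.26 (SE 0.119, adjusted p = 0.131). ABCD2 had 9 counts in the parental and 3 in the knockout tumours.

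The soluble members that work at the ribosome were not called. ABCE1, which splits ribosomes after translation ends, was at 123, 96.4, 98.1 and 152 CPM in the parental and 115, 126, 129 and 115 CPM in the knockout replicates 1 to 4. The parental tumours spanned the knockout values. Its log2 fold change was 0.05 (95% interval -0.25 to 0.35, adjusted p = 0.828).

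ABCF2 had the highest mean level per length in F, 16.9 ± 1.88 and 16.5 ± 0.969 CPM per kilobase, but ABCF1 at 16.1 ± 0.965 and 15.2 ± 0.541 overlapped it in both groups (parental and knockout, SD, n = 4 each), so their order is within the spread. ABCF2 was at 73.4, 63.1, 66.0 and 80.6 CPM in the parental and 65.3, 66.6, 70.1 and 74.3 CPM in the knockout replicates 1 to 4. The groups overlapped throughout. The interval of its log2 fold change ran from -0.24 to 0.17 (adjusted p = 0.824). AC021097.2, a protein-coding gene on the same strand, shares 45.8% of the exon bases of ABCF2. ABCF1, which acts with initiation factor eIF2, had an interval of -0.25 to 0.09 (adjusted p = 0.487). ABCF3 had a log2 fold change of -0.21 and an SE of 0.0867 (adjusted p = 0.100) and was called lower without parental replicate 2 (-0.26, adjusted p = 0.0459).

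In the G subfamily ABCG1, which passes cholesterol to high-density lipoprotein, had the highest level per length. It was at 68.5, 81.5, 77.2 and 66.2 CPM in the parental and 83.1, 60.7, 70.0 and 51.2 CPM in the knockout replicates 1 to 4. The knockout tumours spread beyond the parental ones on both sides. Its log2 fold change was -0.15 (95% interval -0.45 to 0.16, adjusted p = 0.474), while ABCA1, its partner in cholesterol efflux, fell. Whether the 2 changes differ was not tested. ABCG2, the breast cancer resistance protein that pumps many drugs, was at 10.3, 4.88, 7.24 and 9.95 CPM in the parental and 5.47, 9.41, 7.05 and 9.94 CPM in the knockout replicates 1 to 4. Its ranges were nearly the same (interval -0.57 to 0.53, adjusted p = 0.963).

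The remaining members were at or near 0. ABCC12 was at 0 in every one of the 8 libraries, a value that leaves room for up to 3 counts in each. ABCC8, the sulphonylurea receptor of pancreatic beta cells, had 0 counts in the parental and 2 in the knockout tumours, and the pseudogene ABCC13 had 2 and 3. ABCG4 had 1 and 5 counts, ABCG8 1 and 3. ABCG5, which exports plant sterols together with ABCG8, had 1 count in the parental and 10 in the knockout tumours, a ratio of 0.0989 (exact counting interval 0.00228 to 0.695, permutation p = 0.0571).

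The 3 family members under other names carried 1 call. TAP2, which with TAP1 moves peptides into the endoplasmic reticulum for antigen presentation, fell from 21.3 ± 1.93 to 15.5 ± 2.94 CPM (log2 fold change -0.46, SE 0.139, adjusted p = 0.0300). The call was lost without parental replicate 3 or knockout replicate 1 or 2 (adjusted p from 0.0735 to 0.0899) and with upper-quartile scaling (0.0543). TAP1 had a log2 fold change of -0.21 (adjusted p = 0.601), and the summed CPM of the 3 genes was highest in parental replicates 2 and 3 (71.8 and 64.4, against 35.2 to 51.8 in the other 6 tumours), the same 2 as for leukocyte markers, whose part was not tested. The chloride channel gene CFTR had 2 counts in the parental and 0 in the knockout tumours.

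Of 16 genes for regulators of ABC genes, 13 were tested, 3 were higher and 2 lower, with a median log2 fold change of 0.00314. The medians of the partners, conjugation enzymes and uptake transporters described next were -0.06, -0.18 and -0.16, against 0.00345 over all genes, of which 13.0% were higher and 14.1% lower. SREBF2, the master regulator of sterol synthesis, rose from 158 ± 5.90 to 237 ± 10.8 CPM (log2 fold change 0.58, adjusted p = 0.00018). PPARG, a lipid-sensing nuclear receptor, and HNF4A, a hepatocyte and gut factor, rose with log2 fold changes of 0.60 and 1.49 (adjusted p = 0.00536 and 0.00234). AHR, the dioxin receptor, fell from 70.8 ± 7.34 to 39.1 ± 4.51 CPM (log2 fold change -0.86, adjusted p = 0.000152). NR1H3, the oxysterol receptor LXR alpha that drives ABCA1 and ABCG1, fell by 0.53 on the log2 scale (adjusted p = 0.0120). NFE2L2, which drives several C exporters through the antioxidant response element, had 0.20 (adjusted p = 0.208), and its inhibitor KEAP1 had 0.00314 (adjusted p = 0.986). The xenobiotic receptor NR1I2 had 0 counts in all libraries.

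Of 16 substrate acceptors and partners, 13 were tested, 3 were higher and 3 lower, against 13.0% and 14.1% of all genes tested. CLU, a lipid-carrying chaperone of body fluids, rose most, from 4.96 ± 1.92 to 84.5 ± 24.2 CPM (log2 fold change 4.09, adjusted p = 2.81e-06). SLC9A3R1, a scaffold that anchors apical ABCC2 and CFTR, fell from 93.9 ± 12.4 to 45.8 ± 3.53 CPM (log2 fold change -1.03, adjusted p = 4.16e-05). The mitochondrial iron importer SLC25A37, partner of ABCB10, rose by 0.58 on the log2 scale (adjusted p = 0.0128). ACBD5, a peroxisomal acyl-CoA binder, rose by 0.42 (adjusted p = 0.0376), while PEX3 and ferrochelatase FECH fell by 0.39 and 0.37 (adjusted p = 0.0483 and 0.0448). The calls of these last 3 were each lost in at least 6 of 14 alternative fits.

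Enzymes that make glutathione and conjugates, the substrates of many C exporters, were called in 7 of 14 tested, 1 higher and 6 lower. Of all genes tested, 27.0% were called, 13.0% higher and 14.1% lower. The list was chosen with earlier results of these data known, and whether it differs from all genes was not tested. GCLC, the catalytic subunit of glutathione synthesis, rose from 197 ± 29.1 to 295 ± 20.0 CPM (log2 fold change 0.59, adjusted p = 0.00232), and its modifier GCLM had -0.02 (adjusted p = 0.959). The transferases GSTM1, GSTM3, GSTA1 and GSTP1 fell, with log2 fold changes of -0.90, -1.22, -2.62 and -0.32, and the GSTP1 call (adjusted p = 0.0385) was lost in 6 of 14 alternative fits. The glucuronosyltransferases UGT1A6 and UGT1A1 fell too, with log2 fold changes of -2.49 and -1.99. Exons shared within UGT1A, and close paralogs within GSTM and GSTA, make the counts of these single genes uncertain.

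Of 14 uptake transporters, 11 were tested, 3 were higher and 2 lower, against 13.0% and 14.1% of all genes tested. SLCO4A1, a thyroid hormone and anion importer, rose from 78.4 ± 22.4 to 161 ± 30.1 CPM (log2 fold change 1.04, adjusted p = 0.00256). The organic cation transporter SLC22A3 and the carnitine transporter SLC22A5 rose by 1.67 and 0.55 on the log2 scale (adjusted p = 7.34e-06 and 0.00119). The prostaglandin-related SLCO3A1 and SLCO2A1 fell by 1.24 and 1.02 (adjusted p = 0.00229 and 0.0345), and the SLCO2A1 call was lost in 5 of 14 alternative fits. These left out parental replicate 3 or 4 or knockout replicate 1, 2 or 3 (adjusted p from 0.0604 to 0.0936), and without parental replicate 4 the log2 fold change was -0.63.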

How the data were processed

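The authors deposited 1 table of raw counts per gene symbol for each tumour. TopHat2 2.1.1, HTSeq 0.11.0 and hg38 are named in the submitters' processing notes. The annotation, the strand setting and any removal of mouse reads are not given in the sources used here, so antisense overlaps and host reads cannot be separated. Rows that name no gene were left out of library sizes: unassigned reads without a feature were 6.08% to 10.4% of each total, ambiguous ones 3.98% to 4.31% and not uniquely aligned ones 4.52% to 8.11%. Tests used edgeR 4.0.16 (R 4.3.3) quasi-likelihood fits on 8 tumours with TMM scaling, filterByExpr (minimum count 10, minimum total 15) and Benjamini-Hochberg adjustment over all genes tested. CPM uses TMM-scaled libraries. The SE of an edgeR log2 fold change was derived as its absolute value over the square root of the test's F statistic. The 95% intervals of log2 fold changes were built from that SE with a t distribution. Single values were tested by exact two-sided permutation. Gene positions and exon lengths come from GENCODE 29 (GRCh38), to which all 46 members matched, and start windows from RefSeq (GRCh38.p14). Alternatives were DESeq2 1.42.0, RLE and upper-quartile scaling, no filter or at least 1 CPM in 4 tumours, a replicate block, and leaving out each tumour. The fit was tested on simulated data. The members and lists were chosen with earlier results of these data known. Values in every tumour were due for called members changed at least 2-fold and the member highest per length in each subfamily. Other called members were added. The values of 2 tested members, neither of them called, are not reported here singly and are left out of the plots of single genes.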

Additional observations from a re-analysis of the deposited data

Results flagged for a closer look

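Within a group of 4 tumours, 6 member values stood far from the other three (Dixon's criterion at the 95% level). They came from 68 groups examined, and chance gives about 5% of groups. ABCA12 in knockout replicate 3 was at 15.4 CPM, against 10.1 to 11.0 CPM in the others, still below every parental tumour. ABCD3 in parental replicate 4 was at 69.1 CPM, against 55.1 to 56.3 CPM. ABCF1 was at 66.1 CPM in parental replicate 3, against 74.8 to 75.0 CPM, and at 72.4 CPM in knockout replicate 4, against 67.1 to 67.9 CPM. ABCC10 in knockout replicate 1 was at 22.5 CPM, against 20.1 to 20.4 CPM. ABCA6 in knockout replicate 1 was at 0.280 CPM, which is 6 counts, against 0.467 to 0.488 CPM.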

How the results depend on the processing

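Of the 9 called members, all but ABCA7 kept their call and direction in all 14 alternative fits. With no filter on low counts 8 members were called lower instead of 5, the added ones being ABCA3, ABCA8 and ABCA13. That fit tests 45 members instead of 34, which is how ABCA8 and ABCA13 enter, while the cause for ABCA3, tested in both, was not tested. Leaving out 1 tumour at a time gave 4 to 5 members called higher and 4 to 6 lower, and the median log2 fold change of the members ran from -0.091 (without parental replicate 2) to 0.028 (without parental replicate 4), so its sign is not fixed. Same-numbered tumours did not deviate together (correlations from -0.19 to 0.09), so no pairing by number was seen. This cannot show whether same-numbered tumours shared a day or batch, which the labels do not give. With the replicate block 3871 genes were called instead of 4385, and ABCA7 lost its call (log2 fold change -0.47, adjusted p = 0.0759). Upper-quartile scaling made 54.1% of all called genes higher, against 47.9% with TMM, and moved the median of all genes to 0.04. Members under about 10 counts per library, such as ABCA8, ABCG5 and ABCB5, are limited by depth.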
